A study of Mus musculus with 6 samples.

Results

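Annexins are a family of cytosolic proteins that bind the inner face of membranes when calcium rises, and 8 of their genes were measured here in mouse blood neutrophils: Anxa1, Anxa2, Anxa3, Anxa4, Anxa5, Anxa6, Anxa7 and Anxa11. The genes were taken by name, and all 8 of 8 were among the 35853 genes with a transcript in the files and among the 11406 that passed a filter on low counts. The RNA-seq libraries came from Ly6G+ blood cells, Ly6G being a surface protein of mouse neutrophils. A gate on surface Ly6C divided them into Ly6C-high cells (3 libraries) and Ly6C-low cells (3 libraries). Every library came from wild-type BALB/C mice that carried an orthotopic tumour of 4T1, a mouse mammary carcinoma line, 4 weeks after its implantation, and no group without a tumour was analysed here. Whether replicates were different mice or pooled blood is not stated in the labels, so p-values reflect only how much these libraries varied, and that variation may be technical.

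An annexin is built from a conserved core of repeats that bridges calcium ions and acidic phospholipids such as phosphatidylserine, and from an N-terminal region that differs between members and binds partner proteins. Neutrophils are known for a large store of annexin A1, which is released on activation, acts on formyl peptide receptors and limits further recruitment of neutrophils. Other members take part in membrane repair, granule and vesicle fusion and endocytic traffic.

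The deposited estimated counts summed to between 17192372 and 20973623 per library. Ly6C-low replicate 3 stood apart: on the first principal component of log2 CPM (counts scaled to the size of the library), which held 32.8% of the variance, it lay at 38.02, and the other 5 libraries lay between -19.65 and 3.91. The members' fold changes, separation of groups in CPM and correlations are therefore given with and without it. Gene lists, marker sums, mean TPM levels and nearest patterns are given with all 6 libraries only. The transcripts of the sorted antigen followed the labels, with a log2 fold change of Ly6C-high over Ly6C-low of 3.07 for Ly6c1 (edgeR adjusted p = 0.00273) and of 2.90 for Ly6c2 (edgeR adjusted p = 0.00382). Neutrophil markers were detected for 12 of 12 genes and summed to between 392000 and 396000 TPM (counts scaled to transcript length and library size) in Ly6C-high libraries, against 353000 to 378000 TPM in Ly6C-low libraries. Most of this sum was S100a8 and S100a9. The log2 fold change was above 0 for 11 of these markers and below 0 for Csf3r (-0.16, edgeR adjusted p = 0.564). The epithelial genes Krt8, Krt18 and Krt19 were listed at 0 in every library. Epcam, the other epithelial gene of that list, was at 0.0825 to 0.393 TPM in Ly6C-high libraries and 0 to 0.0805 TPM in Ly6C-low libraries.

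The comparison asked how annexin transcripts differed between Ly6C-high and Ly6C-low neutrophils. Of the 8 annexin genes, 7 had a fold change above 0, between 0.24 and 0.45 on the log2 scale, and Anxa6 had a fold change of -0.32. None passed the threshold of an edgeR adjusted p of 0.05, where 0.0351% of all genes tested did, and the members' adjusted p lay between 0.224 and 0.465. DESeq2's Wald test, limma voom and edgeR with the replicate number as a block called 0 members as well, where they called 0.964%, 0.0263% and 0.535% of all genes. At an unadjusted p under 0.05, 5 members were higher in Ly6C-high cells (Anxa1, Anxa3, Anxa5, Anxa7 and Anxa11) and 0 were lower, and 6.92% of all genes tested were higher and 7.34% lower at that level. The median log2 fold change was 0.32 over the 8 members and -0.004 over all genes tested, of which 49.2% had a fold change above 0. The 12 neutrophil markers leaned the same way, with a median of 0.25 and 11 above 0. Of these markers, 4 were higher and 0 lower at an unadjusted p under 0.05, so the lean is not particular to annexins. In TMM-scaled CPM the 3 Ly6C-high libraries lay above the 3 Ly6C-low libraries for 6 members, a pattern that 10.3% of all genes tested showed, and the groups overlapped for Anxa4 and Anxa6. The Ly6C-high libraries lay below for 0 members, against 10.9% of all genes tested. In TPM the Ly6C-high libraries lay above for 4 members, against 4.36% of all genes tested, and the groups overlapped for 4 members. The background was uneven at that scale, where the Ly6C-high libraries lay below for 18.1% of all genes tested. In bulk libraries such as these, fewer cells of a kind and less RNA per cell cannot be told apart.

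**Figure D1:**
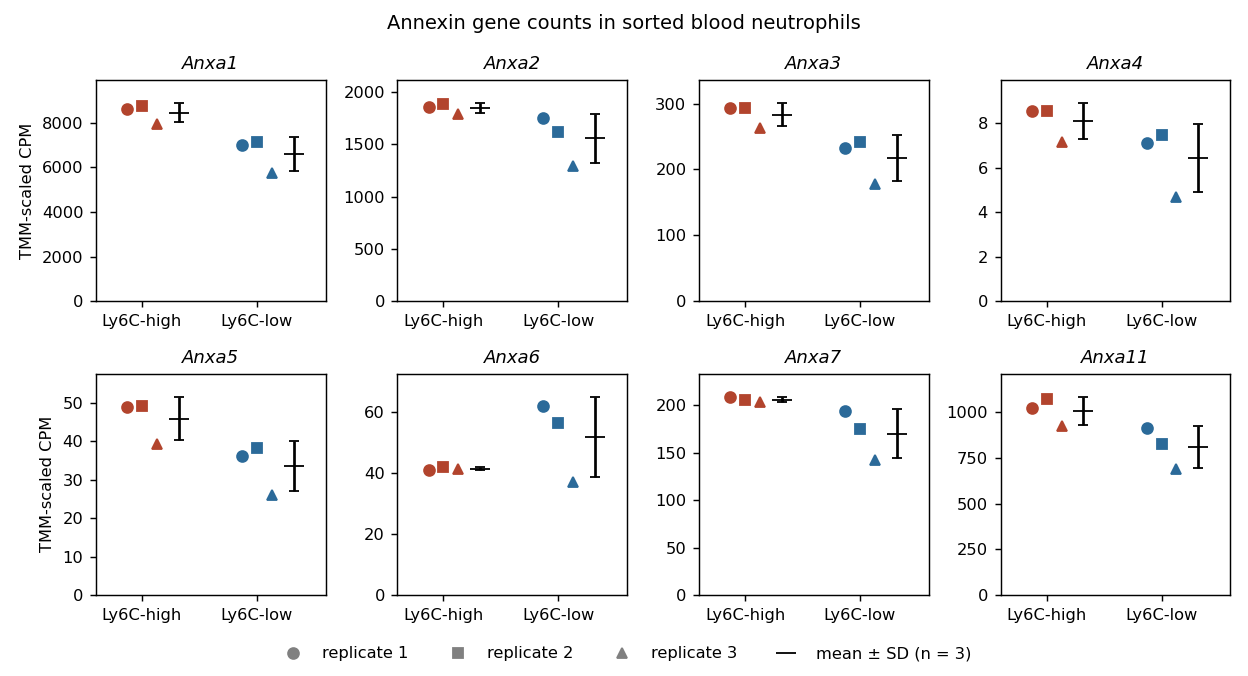
TMM-scaled CPM of the 8 annexin genes (y axis, from 0) in the Ly6C-high libraries (red, left) and the Ly6C-low libraries (blue, right). Marker shapes are the replicate numbers and the bars are the mean ± SD of 3 libraries; Ly6C-low replicate 3 (blue triangle) is the lowest of the 6 libraries in all 8 panels, and Anxa6 is the gene whose other Ly6C-low libraries lie above the Ly6C-high ones.

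Ly6C-low replicate 3 was the lowest of the 6 libraries in CPM for all 8 members and in TPM for 7 of them. The share of all genes that were lowest in this library was not counted. Its TMM factor, by which its CPM were divided, was 1.10, against 0.955 to 1.01 in the other libraries. Without that library, 7 members again had a fold change above 0, but smaller, between 0.13 and 0.30 on the log2 scale. The Ly6C-high libraries then lay above the 2 remaining Ly6C-low libraries for 6 members, a pattern shown by 14.2% of the genes tested. Because the library left out was the lowest for every member, its removal could not end a separation, apart from rescaling of CPM. This count is therefore no separate check. The log2 fold change of Anxa6 fell as well, from -0.32 to -0.51, and so lay further below 0. For Anxa6 all 3 Ly6C-high libraries then lay below the 2 remaining Ly6C-low libraries, as for 15.7% of the genes tested. Those 2 libraries already lay above all Ly6C-high libraries before the removal, so this separation followed from it. Without Ly6C-low replicate 3, Anxa6 was the single member past the threshold, which 0.189% of the genes passed.

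**Figure D2:**
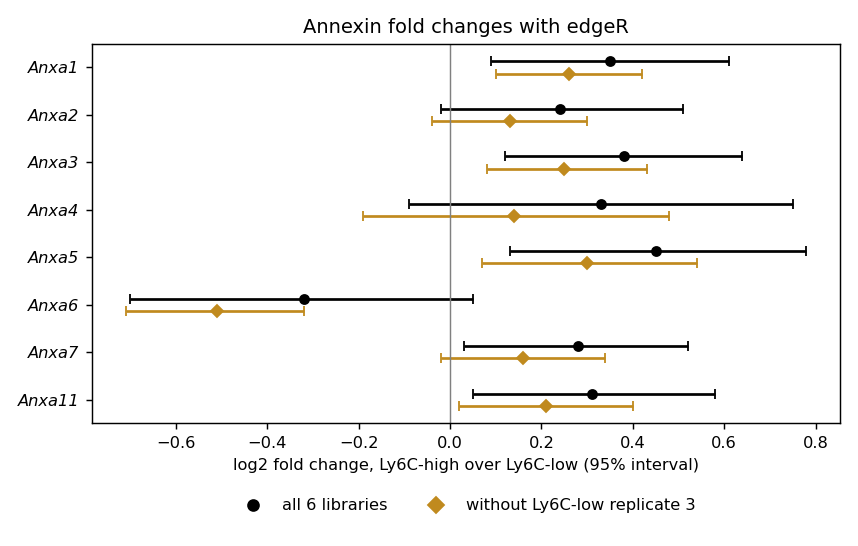
Log2 fold changes of Ly6C-high over Ly6C-low with 95% intervals from edgeR (x axis) for the 8 annexin genes, with all 6 libraries (black circles) and without Ly6C-low replicate 3 (ochre diamonds). With all libraries Anxa5 has the highest value, 0.45, and Anxa6 the single value below 0, -0.32, which is -0.51 without that library.

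Levels of different genes were compared in TPM, which is scaled by transcript length. Over the 6 libraries Anxa1 averaged 6186 TPM, 4.12 times Anxa2 at 1503 TPM, and Anxa2 was 3.38 times Anxa11 at 444 TPM. Anxa3 averaged 208 TPM and Anxa7 83.3 TPM. Below them were Anxa5 at 28.1 TPM, Anxa6 at 22.2 TPM and Anxa4 at 4.41 TPM, so that the first of the order was 1401 times the last. Each neighbour in this order was separated from the next in all 6 libraries except Anxa5 and Anxa6, where Anxa5 was the higher in 5 of 6 libraries by a ratio of the means of 1.26. The ratio of Anxa6 to Anxa5 in TPM was 0.557, 0.57 and 0.702 in Ly6C-high libraries, against 1.14, 0.985 and 0.957 in Ly6C-low libraries. These ratios were looked at after the values were seen, and the groups did not overlap. In TPM the groups overlapped for Anxa5 and for Anxa6 taken alone, and ratios of other gene pairs were not counted for comparison.

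**Figure D3:**
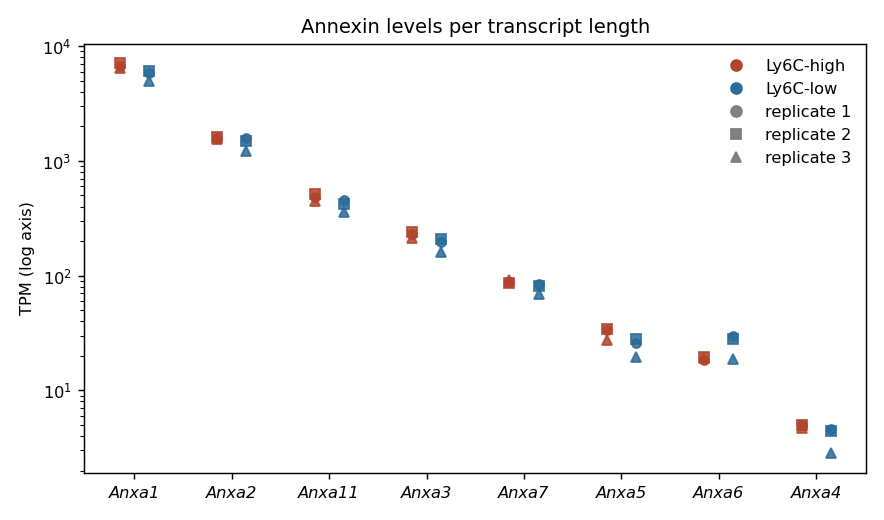
Deposited TPM of the annexin genes in each library (y axis, log scale), ordered by their mean over the 6 libraries, with Ly6C-high libraries in red to the left of Ly6C-low libraries in blue. The order runs from Anxa1 at a mean of 6186 TPM to Anxa4 at 4.41 TPM, and Anxa5 and Anxa6 are the neighbours that overlap.

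Annexin transcripts together made up 0.92%, 0.958% and 0.876% of all TPM in Ly6C-high libraries, against 0.822%, 0.832% and 0.68% in Ly6C-low libraries. The sum was 9176 ± 409 TPM in Ly6C-high cells and 7782 ± 847 TPM in Ly6C-low cells (SD, n = 3 each). It was mostly Anxa1, which held 73.6%, 73.7% and 73.2% of the sum in Ly6C-high libraries and 71.1%, 73.0% and 72.9% in Ly6C-low libraries.

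Anxa1 encodes the annexin that glucocorticoids induce and that inhibits cytosolic phospholipase A2. It had 8602, 8746 and 7952 CPM in Ly6C-high libraries, against 6981, 7110 and 5741 CPM in Ly6C-low libraries. Every Ly6C-high library lay above every Ly6C-low library, also in TPM. The log2 fold change was 0.35 (SE 0.12, 95% interval 0.09 to 0.61, edgeR adjusted p = 0.241), or 1.28-fold. Without Ly6C-low replicate 3 it was 0.26 (edgeR adjusted p = 0.193).

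The receptors and the target of annexin A1 were counted as a list of 4 genes, of which 3 were tested and 0 passed the threshold. At an unadjusted p under 0.05, 2 were higher and 0 lower, where 6.92% of all genes tested were higher and 7.34% lower. The median log2 fold change of the list was 0.34, beside -0.004 over all genes. Fpr1, a receptor for bacterial formyl peptides, had 508, 556 and 551 TPM in Ly6C-high libraries, against 453, 475 and 434 TPM in Ly6C-low libraries, with a log2 fold change of 0.34 (SE 0.09, edgeR adjusted p = 0.194). Fpr2, the receptor through which annexin A1 is best known to act, had 1580, 1710 and 1610 TPM in Ly6C-high libraries, against 1460, 1610 and 1500 TPM in Ly6C-low libraries. The Fpr2 groups overlapped at that scale, and its log2 fold change was 0.20 (SE 0.10, edgeR adjusted p = 0.372). Pla2g4a, which encodes cytosolic phospholipase A2, was at 7.55 to 8.11 TPM in Ly6C-high libraries and 5.39 to 6.37 TPM in Ly6C-low libraries (log2 fold change 0.35, SE 0.13, edgeR adjusted p = 0.267).

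Anxa2 encodes the annexin that joins with a dimer of S100A10 into a complex at the plasma membrane, where it binds plasminogen and links membranes. Its CPM were 1855, 1884 and 1793 in Ly6C-high libraries, against 1756, 1619 and 1294 in Ly6C-low libraries. The groups did not overlap, though the lowest Ly6C-high library and the highest Ly6C-low library were close, and in TPM they overlapped, with 1552 to 1625 TPM in Ly6C-high libraries and 1217 to 1576 TPM in Ly6C-low libraries. The log2 fold change was 0.24 (SE 0.12, 95% interval -0.02 to 0.51, edgeR adjusted p = 0.388), and 0.13 without Ly6C-low replicate 3 (edgeR adjusted p = 0.544).

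Partners of the annexins differed widely in level. S100a10, the partner of annexin A2, had 1.68, 2.46 and 1.03 TPM in Ly6C-high libraries, against 2.76, 4.74 and 2.79 TPM in Ly6C-low libraries, while Anxa2 itself was at 1217 TPM or more in every library. S100a11, which encodes the partner of annexin A1, was at 11700 to 12400 TPM in Ly6C-high libraries and 9760 to 11700 TPM in Ly6C-low libraries. S100a6, which encodes a partner of annexin A11, was at 8360 to 8490 TPM in Ly6C-high libraries and 7270 to 8460 TPM in Ly6C-low libraries. S100a10 had a log2 fold change of -0.90 at this low level (SE 0.40, edgeR adjusted p = 0.340), and the value of S100a11 was 0.21 (SE 0.11, edgeR adjusted p = 0.423). Sri encodes sorcin, a calcium-binding partner of annexin A7, and had a log2 fold change of 0.24 (SE 0.10, edgeR adjusted p = 0.319). Of the 6 partner genes tested, 0 passed, 1 was higher and 1 lower at an unadjusted p under 0.05 (6.92% and 7.34% of all genes tested), and the median log2 fold change was 0.14.

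The RefSeq table of promoters, on build GRCm38.p6, held 8 promoters of 6 of the 8 members, each from 250 bases before to 50 after a transcription start. Anxa3 and Anxa6 had no entry. TATAAA, the core of the TATA box, stood in the promoters of Anxa1 and Anxa2 and in none of the other 6 promoters of members. It was sought on either strand, and 13.6% of 32851 promoters held it. A link between this motif and the level of a gene was not tested. The 100 bases before the start are shown for both, 5′ to 3′ on the gene's strand, with TATAAA in capitals. The Anxa1 stretch is chr19:20390672-20390771 on the minus strand and the Anxa2 stretch is chr9:69453583-69453682 on the plus strand.
Anxa1: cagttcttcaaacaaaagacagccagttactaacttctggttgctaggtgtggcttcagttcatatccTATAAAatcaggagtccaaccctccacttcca
Anxa2: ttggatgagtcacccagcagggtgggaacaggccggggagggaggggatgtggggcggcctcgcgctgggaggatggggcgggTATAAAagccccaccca
The motif began 32 bases before the start in Anxa1 and 17 bases before it in Anxa2. GGGCGG, a GC box, was on either strand in promoters of 4 members (Anxa2, Anxa4, Anxa7 and Anxa11) and in 35.7% of all promoters, and its copies in Anxa2 did not overlap the TATA box letters. The motif CCAAT was in 0 of the 8 member promoters on either strand and in 37.4% of all promoters. Matches of this kind describe the letters of the window and were not tested for binding.

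Anxa3 encodes the annexin known from neutrophil granules, where it binds granule membranes. It had 293, 293 and 263 CPM in Ly6C-high libraries, against 233, 242 and 178 CPM in Ly6C-low libraries. The groups did not overlap in CPM or TPM. The log2 fold change was 0.38 (SE 0.12, 95% interval 0.12 to 0.64, edgeR adjusted p = 0.224), the lowest adjusted p among the members, and 0.25 without Ly6C-low replicate 3 (edgeR adjusted p = 0.247).

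Anxa5 encodes the annexin used in the laboratory to stain phosphatidylserine on dying cells, and it forms lattices on such membranes. It had 48.9, 49.2 and 39.4 CPM in Ly6C-high libraries, against 36.1, 38.2 and 26.0 CPM in Ly6C-low libraries. Ly6C-high replicate 3 lay close to the highest Ly6C-low library, and in TPM the groups overlapped, with 27.3 to 34.0 TPM in Ly6C-high libraries and 19.6 to 28.2 TPM in Ly6C-low libraries. The log2 fold change was 0.45 (SE 0.15, 95% interval 0.13 to 0.78, edgeR adjusted p = 0.236), or 1.37-fold, the highest of the members, and 0.30 without Ly6C-low replicate 3 (edgeR adjusted p = 0.288). With no filter on low counts, where 2.13% of 20580 genes passed the threshold, Anxa3 (log2 fold change 0.37, edgeR adjusted p = 0.0343) and Anxa5 (0.45, edgeR adjusted p = 0.011) passed it, and these were the only 2 members that did.

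Anxa4, an annexin best known from epithelia, was the least abundant member. Its CPM were 8.57, 8.53 and 7.15 in Ly6C-high libraries, against 7.14, 7.49 and 4.67 in Ly6C-low libraries. The groups overlapped between Ly6C-high replicate 3 and Ly6C-low replicate 2, and the log2 fold change was 0.33 (SE 0.19, 95% interval -0.09 to 0.75, edgeR adjusted p = 0.465). Its estimated counts reached 162 (Ly6C-high replicate 1) and were as low as 88 (Ly6C-low replicate 3), and its precision was the lowest of the members. Without Ly6C-low replicate 3 the log2 fold change was 0.14 (edgeR adjusted p = 0.779).

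Anxa7 and Anxa11 encode annexins with long N-terminal regions: annexin A7, or synexin, promotes fusion of membranes, and annexin A11 binds the calcium sensors S100A6 and PDCD6. Anxa7 had 208, 206 and 203 CPM in Ly6C-high libraries, against 194, 175 and 142 CPM in Ly6C-low libraries. The Ly6C-high libraries lay within a narrow range and above all Ly6C-low libraries, and the log2 fold change was 0.28 (SE 0.11, 95% interval 0.03 to 0.52, edgeR adjusted p = 0.307). Anxa11 had 1025, 1072 and 923 CPM in Ly6C-high libraries, against 915, 826 and 688 CPM in Ly6C-low libraries. Here Ly6C-high replicate 3 and Ly6C-low replicate 1 nearly met, and in TPM the groups overlapped, with 443 to 512 TPM in Ly6C-high libraries and 358 to 456 TPM in Ly6C-low libraries. The log2 fold change of Anxa11 was 0.31 (SE 0.12, 95% interval 0.05 to 0.58, edgeR adjusted p = 0.289). Without Ly6C-low replicate 3 the log2 fold changes were 0.16 for Anxa7 (edgeR adjusted p = 0.477) and 0.21 for Anxa11 (edgeR adjusted p = 0.358). Of the words of 31 bases in Anxa11 transcripts, 17.2% also occur in other annotated genes, mainly the antisense gene Anxa11os and the predicted genes Gm2260 and Gm2274, which were not analysed here. The count of Anxa11 is therefore uncertain, and the share of its reads from such words was not measured.

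Anxa6 encodes the annexin with a duplicated core, which is known to act on late endosomes and on the traffic of cholesterol. It had 41.0, 42.1 and 41.3 CPM in Ly6C-high libraries, against 61.9, 56.6 and 37.1 CPM in Ly6C-low libraries. Ly6C-low replicates 1 and 2 lay above all Ly6C-high libraries and Ly6C-low replicate 3 lay below them. The coefficient of variation was 1.29% in Ly6C-high libraries and 25.1% in Ly6C-low libraries, each from 3 libraries. Anxa6 had 776, 789 and 844 estimated counts in Ly6C-high libraries. Sampling of reads alone would usually give more spread than 1.29% at such counts. The log2 fold change was -0.32 (SE 0.17, 95% interval -0.70 to 0.05, edgeR adjusted p = 0.416). Without Ly6C-low replicate 3 it was -0.51 (SE 0.09, 95% interval -0.71 to -0.32, edgeR adjusted p = 0.0345), which passed the threshold, with 40.1, 41.4 and 40.7 CPM in Ly6C-high libraries against 60.9 and 55.3 CPM in Ly6C-low libraries. As a share of the summed annexin TPM, Anxa6 was 0.202%, 0.202% and 0.219% in Ly6C-high libraries, against 0.361%, 0.334% and 0.275% in Ly6C-low libraries. That share was chosen after the values were seen. It did not overlap between the groups, whereas Anxa6 itself overlapped in CPM and in TPM. The sum is mostly Anxa1, whose Ly6C-high libraries all lay above the Ly6C-low ones, so the share is no separate evidence on Anxa6.

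Summed markers of some other blood cells differed between the groups. All 9 of 9 eosinophil markers were detected in at least 1 library, and their summed level was 19.2 to 24.0 TPM in Ly6C-high libraries and 39.4 to 44.1 TPM in Ly6C-low libraries. A large part of it was Siglecf, at 13.6 to 16.5 TPM in Ly6C-high libraries and 20.1 to 25.0 TPM in Ly6C-low libraries. The 7 of 7 basophil and mast cell markers summed to between 3.21 and 5.41 TPM in Ly6C-high libraries and between 7.47 and 36.3 TPM in Ly6C-low libraries, with the highest sum in Ly6C-low replicate 3. The 10 of 10 monocyte markers summed to between 108 and 115 TPM in Ly6C-high libraries and between 118 and 137 TPM in Ly6C-low libraries, most of it Csf1r. Of the 8 monocyte markers tested, 0 passed the threshold, 6 had a fold change above 0, 4 were higher and 0 lower at an unadjusted p under 0.05, and the median log2 fold change was 0.74. Over all genes tested, 0.0351% passed, 49.2% had a fold change above 0, and the median was -0.004. At that unadjusted level, 6.92% of all genes were higher and 7.34% lower. No marker of these 3 lists was at 0 in every library. Of the 6 eosinophil markers tested, 1 passed the threshold, Alox15, and it was lower in Ly6C-high cells. At an unadjusted p under 0.05, 0 of these 6 were higher and 4 lower, and 1 had a fold change above 0. Of the 6 basophil and mast cell markers tested, 0 passed, and 0 were higher and 3 lower at that level. The median log2 fold changes were -0.66 for eosinophil markers and -1.86 for basophil and mast cell markers. The part of these cells, or of the neutrophil markers' higher sum in Ly6C-high libraries, in the levels of Anxa6 and of the other annexins was not tested.

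Each member had between 3 and 11 transcripts in the files. In Anxa1, Anxa2, Anxa3, Anxa5 and Anxa11 a single transcript held between 92.3% and 100.0% of the estimated counts of its gene in every library. Anxa6 was instead divided between transcripts that differ by a short exon, and Anxa7 mainly between transcripts that differ in their first exon, with a scarce form that holds an added exon. The sequences around the added exons are shown because the shares of these forms rest on them. Coordinates are on GRCm38 from the GENCODE M21 annotation, both genes are on the minus strand, and sequences run 5′ to 3′. Capitals mark the alternative exon and lower case the 30 bases before and after it. The Anxa6 exon, number 21 of 26, is coding and in frame, with 18 bases at chr11:54987051-54987068, and it is present in Anxa6-202 and absent from Anxa6-201.
Anxa6-202: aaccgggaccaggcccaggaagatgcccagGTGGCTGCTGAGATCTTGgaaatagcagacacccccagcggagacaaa
Anxa6-201: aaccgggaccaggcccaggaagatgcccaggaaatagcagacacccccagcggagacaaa
The Anxa7 exon, number 6 of 14, has 66 bases at chr14:20467458-20467523, and it is present in Anxa7-202 and absent from Anxa7-201; the longer form is known from heart, skeletal muscle and brain.
Anxa7-202: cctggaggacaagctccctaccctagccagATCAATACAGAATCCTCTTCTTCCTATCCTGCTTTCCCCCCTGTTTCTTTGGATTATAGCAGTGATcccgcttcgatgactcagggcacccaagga
Anxa7-201: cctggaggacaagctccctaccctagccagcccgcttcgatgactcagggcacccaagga

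Both forms of Anxa6 were present in every library. Of the estimated counts of the Anxa6 transcripts that either keep or skip the exon, 64.0%, 61.8% and 60.0% fell on the form that keeps it in Ly6C-high libraries, against 69.5%, 59.4% and 65.1% in Ly6C-low libraries. The groups overlapped, with means of 61.9% ± 2.04 in Ly6C-high libraries and 64.7% ± 5.04 in Ly6C-low libraries (SD, n = 3 each, two-sided exact permutation p = 0.5). The Anxa7 exon was mostly skipped: the form that keeps it held 3.61%, 4.01% and 4.45% in Ly6C-high libraries, against 3.73%, 2.96% and 2.1% in Ly6C-low libraries (two-sided exact permutation p = 0.2). These exons were chosen after their values were seen.

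Anxa7-207, the Anxa7 transcript with the highest mean share over the 6 libraries, starts at another first exon than Anxa7-201. Anxa7-207 held 52.8%, 51.5% and 50.7% of the gene's estimated counts in Ly6C-high libraries, against 40.2%, 49.1% and 47.4% in Ly6C-low libraries. Anxa7-201 held 41.0%, 41.5% and 40.0% in Ly6C-high libraries, against 53.5%, 44.2% and 46.2% in Ly6C-low libraries, where it was the larger of the pair in replicate 1. The groups did not overlap for Anxa7-207, with means of 51.7% ± 1.08 in Ly6C-high libraries and 45.6% ± 4.73 in Ly6C-low libraries (SD, n = 3 each). The difference was 6.09 percentage points, and 3.4 without Ly6C-low replicate 1. The two-sided exact permutation p was 0.1, the smallest that 3 libraries against 3 allow, and 0.8 after Benjamini-Hochberg adjustment over the 8 members tested in this way. In Anxa4 the main transcript, Anxa4-201, held 80.2%, 74.1% and 75.8% in Ly6C-high libraries, against 73.2%, 79.4% and 44.3% in Ly6C-low libraries (two-sided exact permutation p = 0.4), and the lowest share was in Ly6C-low replicate 3. For the other 6 members the two-sided exact permutation p was between 0.6 and 1. The reads were single-end, and the division of reads between transcripts is the estimate of the authors' tool, not a direct count.

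**Figure D4:**
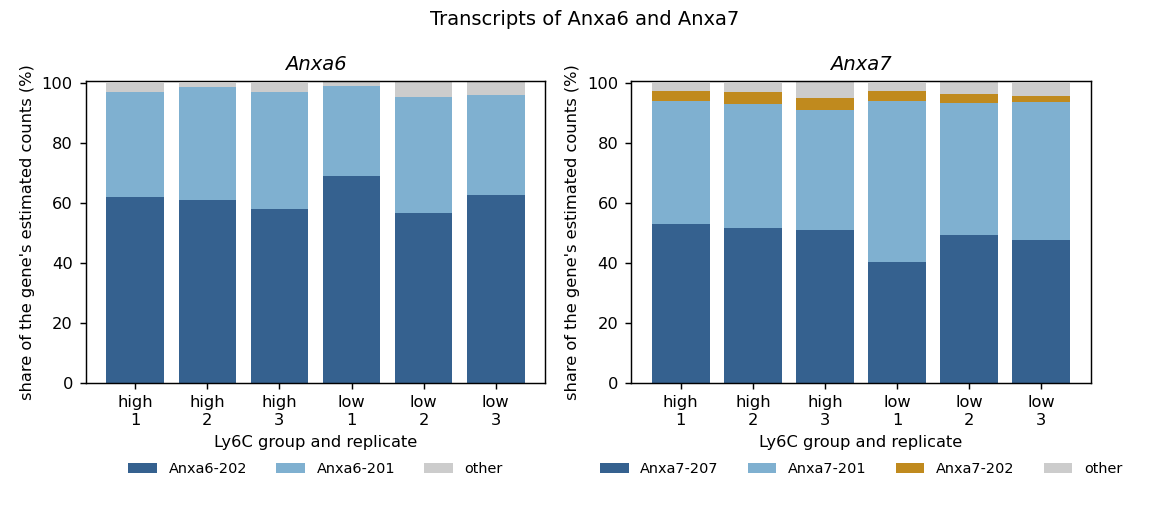
Share of the estimated counts of Anxa6 (left) and Anxa7 (right) assigned to each transcript (y axis, percent) in each library, Ly6C-high libraries before Ly6C-low libraries. Anxa6-202 and Anxa6-201 are both present in every library, and Anxa7-207 holds between 50.7% and 52.8% in Ly6C-high libraries and between 40.2% and 49.1% in Ly6C-low libraries.

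The annexins varied together across the libraries, apart from Anxa6. Among the 7 other members, Pearson's r of log2 CPM between pairs was between 0.91 and 0.99 over the 6 libraries, and between 0.48 and 0.99 without Ly6C-low replicate 3. For Anxa6 with each of the others it was between -0.07 and 0.28, and between -0.93 and -0.59 without that library. Values of 1 library share its depth and RNA, so these correlations are descriptions. Relative to each gene's mean over the 6 libraries, Ly6C-low replicate 3 lay between 0.30 below for Anxa6 and 0.61 below for Anxa4 on the log2 CPM scale.

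**Figure D5:**
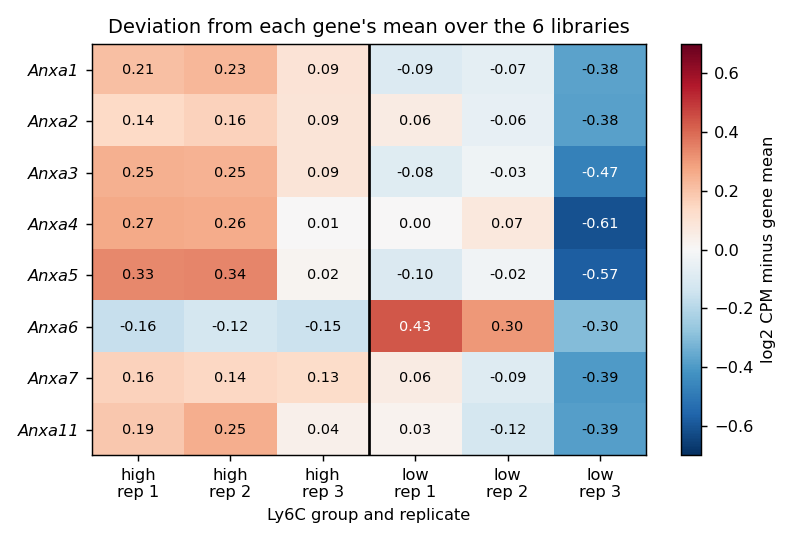
Log2 CPM minus the mean of the gene over the 6 libraries (colour and printed value) for the annexin genes in rows and the libraries in columns, Ly6C-high libraries left of the line and Ly6C-low libraries right of it. The rows other than Anxa6 share a pattern of values above 0 in the Ly6C-high libraries with the lowest value in Ly6C-low replicate 3, and the Anxa6 row has its high values in Ly6C-low replicates 1 (0.43) and 2 (0.30).

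The genes whose pattern over the 6 libraries was most like that of a member were sought among 6957 protein-coding genes. These had a mean of at least 5 CPM, and genes with Gm-number or Rik names were left out. For Anxa3 the nearest genes were Rab8a (Pearson's r = 0.999), Megf9 (0.999) and Pdk3 (0.997). For Anxa5 they were Clint1 (0.999), Itm2b (0.997) and Rab6a (0.995). For Anxa6, added after the values were seen, they were Cog8 (0.996), Dym (0.989) and Mcfd2 (0.987). With 6 libraries, the best of so many genes is high by selection alone, so these values are descriptions.

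Other annexin genes were scarce. Anxa9 had between 0.885 and 1.13 TPM in Ly6C-high libraries and between 0.937 and 1.37 TPM in Ly6C-low libraries, with a log2 fold change of 0.12 (SE 0.30, edgeR adjusted p = 0.883). Anxa8, Anxa10 and Anxa13 were listed at 0 in every library.

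Genes that work beside the annexins at membranes were counted in 4 further lists, and 0 genes of these lists passed the threshold. Of 11 genes tested that expose or internalise phosphatidylserine, the lipid that annexin A5 binds, 4 were higher and 0 lower at an unadjusted p under 0.05, with a median log2 fold change of 0.22, beside 6.92% higher, 7.34% lower and a median of -0.004 over all genes tested. Among them Atp8b4, a phospholipid flippase, had 51.1, 56.2 and 55.6 TPM in Ly6C-high libraries, against 45.1, 45.5 and 31.7 TPM in Ly6C-low libraries, with a log2 fold change of 0.54 (SE 0.14, edgeR adjusted p = 0.192). Plscr1, a phospholipid scramblase family gene, had a log2 fold change of 0.25 (SE 0.09, edgeR adjusted p = 0.266).

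Of 12 membrane repair genes tested, 1 was higher and 1 lower at an unadjusted p under 0.05, shares near the 6.92% higher and 7.34% lower of all genes, and the median log2 fold change was 0.10. Pdcd6ip, which encodes the ESCRT adaptor ALIX, had a log2 fold change of 0.28 (SE 0.12, edgeR adjusted p = 0.329), and Trim72, a muscle repair gene at 0.824 to 0.9 TPM in Ly6C-high libraries and 1.08 to 1.99 TPM in Ly6C-low libraries, had a value of -0.77 (SE 0.27, edgeR adjusted p = 0.258). Dysf, which encodes the repair protein dysferlin, was listed at 0 in every library.

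Copines are another family of calcium-dependent membrane-binding proteins. Of 5 copine genes tested, 1 was higher and 0 lower at an unadjusted p under 0.05, beside 6.92% higher and 7.34% lower over all genes, with a median log2 fold change of 0.23. Cpne2 had 66.7, 84.1 and 78.3 TPM in Ly6C-high libraries, against 62.2, 63.9 and 56.9 TPM in Ly6C-low libraries, and a log2 fold change of 0.40 (SE 0.10, edgeR adjusted p = 0.192), and Cpne3 had a value of 0.31 (SE 0.15, edgeR adjusted p = 0.366).

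Of 12 genes tested for calcium-driven granule release, 3 were higher and 0 lower at an unadjusted p under 0.05, beside 6.92% and 7.34% of all genes, with a median log2 fold change of 0.17. Stx11, which encodes a syntaxin of cytotoxic and myeloid cells, had a log2 fold change of 0.35 (SE 0.11, edgeR adjusted p = 0.226), and Sytl1, which encodes a Rab27 effector of neutrophil granule release, had a value of 0.29 (SE 0.12, edgeR adjusted p = 0.315).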

How the data were processed

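Poly(A) RNA libraries were sequenced as single-end reads, per the labels' protocols. Per the submitters' processing notes, the authors used kallisto and GRCm39. No version, index or strand setting is given in the sources used here. The deposited tables give estimated counts and TPM per transcript, per the file headers. Estimated counts and TPM were summed per gene through GENCODE M21 (GRCm38), which matched 99.04% of 117486 transcripts, and the summed counts were rounded to whole numbers. Sequences came from that annotation and from RefSeq.

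The test was run in R 4.3.3 with edgeR 4.0.16 (filterByExpr defaults, TMM, robust quasi-likelihood F test, group as the term, all 6 libraries), with Benjamini-Hochberg adjustment over 11406 genes and a threshold of 0.05. CPM are TMM-scaled, log2 fold changes set Ly6C-high over Ly6C-low, and intervals are 95%. The libraries' common coefficient of variation in that fit was 13.7%. Without molecular identifiers, PCR copies stayed in the counts. Counts of libraries in 1 group differed by a chi-square per gene of 14.3 to 48.2, so none was taken as a copy. Transcript shares were compared by exact permutation. The script was tested on simulated data.

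The members and lists were chosen with earlier results of these data known. Named genes were the members, the other annexins, the 2 genes with the smallest p in each list, Ly6c1, Ly6c2 and Ly6g (log2 fold change 0.50, edgeR adjusted p = 0.278), and the 3 genes nearest in pattern to the 2 members with the smallest p. S100a11, S100a6, Fpr2, Dysf and the single cell type markers named above were named after their values were seen. The lists' markers of platelets (9.88 to 23.1 TPM in Ly6C-high and 10.7 to 28.6 TPM in Ly6C-low libraries), erythroid cells (685 to 2420 TPM in Ly6C-high and 1730 to 2510 TPM in Ly6C-low libraries), T and NK cells (29.3 to 47.1 TPM in Ly6C-high and 25.7 to 37.0 TPM in Ly6C-low libraries) and B cells (1.8 to 3.34 TPM in Ly6C-high and 1.7 to 2.97 TPM in Ly6C-low libraries) overlapped between the groups. Alternatives were a replicate block, size factors of DESeq2 1.42.0, library size alone, no filter, a mean count of 10, DESeq2's Wald test, voom in limma 3.58.1, length-scaled TPM, protein-coding genes, removal of the trend with gene length, and each library left out. The counts of separated groups without Ly6C-low replicate 3 were added after the data were seen.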

Additional observations from a re-analysis of the deposited data

How the results depend on the processing

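Over 16 alternatives, 125 of 128 member values kept their direction and their side of the threshold, and no member changed sign. The exceptions are Anxa3 (0.37) and Anxa5 (0.45), which passed with no filter on low counts, so that the count of members past the threshold was 2, and Anxa6 (-0.51), which passed without Ly6C-low replicate 3. With each library left out in turn, the log2 fold change ran from 0.26 to 0.41 for Anxa1, 0.13 to 0.34 for Anxa2, 0.25 to 0.46 for Anxa3, 0.14 to 0.45 for Anxa4, 0.30 to 0.56 for Anxa5, -0.51 to -0.18 for Anxa6, 0.16 to 0.37 for Anxa7 and 0.21 to 0.41 for Anxa11, and the count of members past the threshold from 0 to 1. The edgeR adjusted p of Anxa6 ran from 0.0345 to 0.673 over these fits. The count of members whose Ly6C-high libraries all lay lower was 0, where 10.9% of all genes tested showed this. Without Ly6C-low replicate 3 the count was 1, where 15.7% of the genes tested showed it. Of all genes, 4 passed the threshold, against 61 with the replicate block, 8 with library size alone, 439 with no filter, 110 with DESeq2's Wald test, 3 with voom and 2 with length-scaled TPM, and 2 to 22 with 1 library left out; 22 was without Ly6C-low replicate 3. Library size alone moved the median of all genes by -0.11 and gave 0.35 for Anxa5 and -0.42 for Anxa6. The cause of these changes was not tested.

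The labels do not say whether replicate numbers pair the samples, and the data left it undecided: deviations from the group means had a correlation of 0.237, -0.037 and 0.239 for numbers 1, 2 and 3, and Ly6C-high replicate 2 correlated best with Ly6C-low replicate 1 (0.11). With the replicate block no member passed, and the lowest edgeR adjusted p was 0.0505, for Anxa5 (0.46). Under DESeq2's Wald test 0 members passed as well. The share of Anxa4-201 differed by 11.1 percentage points between the groups, and by 0.371 to 17.9 with 1 library left out; for Anxa7-207 the difference was 6.09, and 3.4 to 7.86. Depth ranged from 88 or more estimated counts per library for Anxa4 to 108254 or more for Anxa1.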
